A study of Homo sapiens with 6 samples.

Results

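The EGR, FOS, JUN and IER2 genes were examined in HCT116 cells transfected with pcYY2 or pcCon, and 10 genes were followed of the 50868 genes in the deposited table. HCT116 is a human colorectal cancer cell line. pcYY2 is a vector for YY2 overexpression, and pcCon is the empty vector pcDNA3.1(+), so that both groups went through transfection. RNA-Seq of polyA RNA was performed on 3 samples for each plasmid. The methods give a collection time of a day after transfection for overexpression experiments in general and none for the RNA-Seq samples, and nothing says whether these came from separate cultures, so the p values measure the spread between these samples, which may be technical. The members were chosen by gene name with their pcYY2 and pcCon values already known, EGR1 being among the genes with the lowest log2 fold change in this contrast and the others belonging to its class by name. For this reason their fold changes, intervals and calls are given as a description of these samples, with no p value, and support nothing.

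Immediate early genes are transcribed within minutes of a growth factor, serum or stress signal, without the need for new protein synthesis. The signal reaches their promoters largely through the ERK pathway and the serum response factor SRF, which binds the CArG box together with ETS proteins such as ELK1, and through factors of the CREB and ATF family. EGR1, EGR2 and EGR3 encode zinc-finger transcription factors that bind GC-rich sites. FOS, FOSL1 and FOSL2 pair with JUN, JUNB or JUND to form the transcription factor AP-1, which acts on genes of growth, invasion and differentiation in epithelial cells, while IER2 encodes a small nuclear protein induced by the same signals.

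The promoters are shown first, since YY2 is a DNA-binding factor and shares its recognition letters with YY1. The windows are the 250 bases before each RefSeq start on GRCh38.p14. Of the 10 genes, 8 have such a window in the RefSeq table used here, with 3 starts for EGR2 and 10 windows in all. Both strands were searched for the CArG box and for TGACGTCA and its part TGACG (CREB and ATF), TGAGTCA and TGACATCA (AP-1), GCGTGGGCG and GCGGGGGCG (EGR), GCCATNTT (YY1 and YY2) and CCGGAA (ETS). The sequences of EGR1, EGR2 and IER2 are printed 5′ to 3′ along the gene, because they hold the CArG boxes and the YY1 and YY2 letters found among the members. Capitals mark matches to the CArG box, TGACG or its reverse, and GCCATNTT.
EGR1, plus strand, chr5:138465229-138465478: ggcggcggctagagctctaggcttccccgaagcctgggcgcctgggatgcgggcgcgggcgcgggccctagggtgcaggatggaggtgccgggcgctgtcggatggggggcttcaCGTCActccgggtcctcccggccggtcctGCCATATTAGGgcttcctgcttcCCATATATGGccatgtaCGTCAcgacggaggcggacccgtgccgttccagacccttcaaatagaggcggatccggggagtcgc
EGR2, minus strand, chr10:62816367-62816616: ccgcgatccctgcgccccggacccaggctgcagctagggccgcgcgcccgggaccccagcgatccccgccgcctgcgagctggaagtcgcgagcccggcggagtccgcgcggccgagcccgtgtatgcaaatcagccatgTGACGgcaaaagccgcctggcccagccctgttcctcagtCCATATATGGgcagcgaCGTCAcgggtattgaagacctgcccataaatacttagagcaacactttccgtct
IER2, plus strand, chr19:13150161-13150410: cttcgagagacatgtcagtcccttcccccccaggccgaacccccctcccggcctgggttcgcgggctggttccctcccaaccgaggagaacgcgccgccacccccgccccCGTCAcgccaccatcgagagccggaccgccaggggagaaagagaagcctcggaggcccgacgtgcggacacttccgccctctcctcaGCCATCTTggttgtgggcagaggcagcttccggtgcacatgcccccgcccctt

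The EGR1 window held a CArG box from -105 to -96 and another from -83 to -74, counted from the start. The printed EGR2 window, which lies before the start at 62816366, held one from -71 to -62. CArG boxes were found in 1.16% of the 35116 promoter windows of all genes, and among the member windows only in these of EGR1 and EGR2. Bases outside the windows were not searched, and FOSL1 and EGR3 had no window, so a CArG box elsewhere at the other members was not looked for. The letters GCCATNTT, found in 3.86% of all windows, occurred in EGR1 from -106 to -99, where they overlap the first CArG box, and in IER2 from -53 to -46. These letters are a shortened form, and the longer CGCCATNTT, searched after the data were seen and found in 1.38% of all windows, was in 0 of the 10 windows. TGACG occurred in 8 of the 10 windows and at least once in each of the 8 genes, against 21.2% of all windows, and JUND was the only member with the complete TGACGTCA (from -200 to -193), which 1.65% of all windows hold. JUN held TGACATCA from -67 to -60, a letter string found in 2.37% of windows and added to the search after the data were seen. CCGGAA was found in IER2 only, against 14.5% of windows. It was the only ETS string searched, so other letters that ETS proteins may bind were not looked for. TGAGTCA, GCGTGGGCG and GCGGGGGCG, present in 4.2%, 0.72% and 4.72% of all windows, were not found in the 10 windows. A match of letters is a description and not a measured binding site.

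The total count per sample was between 15158360 and 29572882, the deepest sample being pcYY2 2. YY2 had an FPKM of 2.22, 2.52 and 1.73 in the pcCon samples and of 11.6, 11.1 and 11.01 in the pcYY2 samples, in the direction of the labels (log2 fold change 2.39, edgeR adjusted p = 0.00107). Plasmid and endogenous YY2 reads are not separated in these counts. The epithelial genes EPCAM, KRT8, KRT18, KRT19, CDH1 and CLDN7 were expressed in every sample, whereas VIL1, a marker of intestinal brush border, had at most 2 reads. The summed FPKM of all 7 epithelial markers was between 303.7 and 317.5 in pcCon and between 395.8 and 430.6 in pcYY2. KRT8 and KRT19 carried most of this difference, with 61.6 to 64.9 against 86.0 to 113 for KRT8 and 106 to 110 against 152 to 166 for KRT19, while CLDN7 was lower in pcYY2 (7.21 to 8.10 against 6.06 to 6.81). The part of these differences in the results below was not tested. Of the markers of other cell types, LUM had no read, COL1A1 had an FPKM between 1.90 and 2.66 and the others stayed under 0.25. Among these low ones, PTPRC, CD3E and PECAM1 were each highest in pcYY2 2, at 0.2445, 0.0593 and 0.101. In these bulk samples, fewer cells of a kind and less RNA per cell cannot be told apart.

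EGR1 was expressed at about 3.27-fold lower level in pcYY2, and EGR2 was lower from few reads. The FOS and JUN genes had log2 fold changes between -0.30 and 0.11 and were not called with edgeR. The intervals of FOS and FOSL1 were wide, and JUNB was lower in pcYY2 without overlap. IER2 differed more between samples of 1 group than between the groups. Of the 7 members with a mean FPKM of at least 1, which entered the quasi-likelihood test of edgeR with 12015 genes in all, 1 (EGR1) was called lower at an adjusted p of 0.05 or less and 0 were called higher. Among all tested genes 9.37% were called, 4.85% lower and 4.52% higher, and since the members were chosen on this contrast nothing is read from their count. The median log2 fold change was -0.22 over these 7 members and 0.002 over all tested genes. The other 3 members (EGR2, EGR3 and FOS) had a mean deposited FPKM under 1 and were fitted with a filter of 0.1. There EGR2 was called lower, against 2.19% of genes called lower in that fit. The pcYY2 and pcCon values did not overlap for 5 of the 10 members, with 4 lower in pcYY2 and FOSL2 higher. Of the 7 with a mean FPKM of at least 1 this held for 3, where 35.8% of all tested genes showed this. No such share was computed with the filter of 0.1, and nothing is read from these counts.

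**Figure D1:**
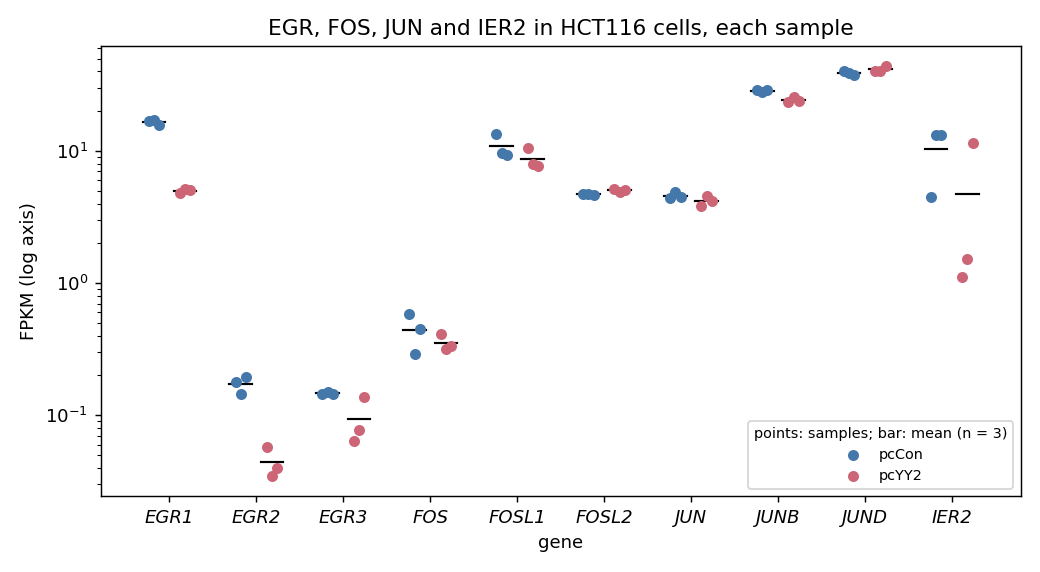
FPKM of the 10 members in each sample on a log axis, with pcCon in blue, pcYY2 in red, points for samples and a bar for the mean of 3. The EGR1 groups are apart at about 16.6 and 5.01, the group means of the FOS and JUN genes are less far apart, and IER2 is scattered from 1.11 to 13.3.

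Among the EGR genes, EGR1 (ENSG00000120738, GRCh38 chromosome 5 from 138465490 to 138469315 in the deposited table) encodes the member best known as a growth factor response gene. Its FPKM was 16.9, 17.1 and 15.7 in the pcCon samples and 4.82, 5.14 and 5.06 in the pcYY2 samples. The groups did not overlap, and the samples of each lay close together, with a largest to smallest ratio of 1.09 in pcCon and 1.06 in pcYY2. The mean was 16.6 ± 0.779 (SD, n = 3) and 5.01 ± 0.164, from between 232 and 981 reads in a sample. On the log2 scale pcYY2 differed from pcCon by -1.71 (SE 0.0709, 95% interval -1.88 to -1.54), and only 16 of the 12015 tested genes had a lower one. No other annotated gene overlaps EGR1 in GENCODE 44.

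EGR2 (ENSG00000122877, chromosome 10) encodes a related factor known for its part in myelination and immune cells. Its reads numbered 22, 18 and 20 in pcCon and 6, 7 and 5 in pcYY2. All pcYY2 counts lay under the pcCon counts, although pcYY2 2 was the deepest sample. The FPKM was 0.172 ± 0.0249 (SD, n = 3) in pcCon and 0.0442 ± 0.0119 in pcYY2, and the log2 fold change was -1.95 (SE 0.345, 95% interval -2.75 to -1.14). A minimum of 3 counts corresponds here to between 0.101 and 0.198 CPM, which covers counting error only. The call of EGR2 was lost when pcCon 1, pcCon 2, pcCon 3, pcYY2 2 or pcYY2 3 was left out (log2 fold change -1.92, -2.06, -1.87, -1.79 and -1.92), and it was kept without pcYY2 1 (-2.14). The deposited locus of EGR2 reaches from 62811996 to 62919900, while GENCODE 44 ends the gene at 62819167 and lists an overlapping noncoding gene on the same strand, whose reads were not analysed here.

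EGR3 (ENSG00000179388), a factor known from muscle spindles and lymphocytes, had 24, 25 and 20 reads in pcCon and 9, 21 and 23 in pcYY2. Per depth the pcYY2 samples were lower, at an FPKM of 0.0644, 0.0778 and 0.137 against 0.144, 0.150 and 0.145, but pcYY2 3 lay close to the pcCon samples. The log2 fold change was -0.62 (SE 0.332) with a 95% interval from -1.39 to 0.16. It was -0.99 without pcYY2 3, -0.44 without pcYY2 1 and -0.49 without pcYY2 2. A noncoding gene on the other strand that overlaps EGR3 had 0 reads in the pcCon samples and at most 9 in a pcYY2 sample.

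Among the FOS genes, FOS (ENSG00000170345, chromosome 14 from 75278774 to 75282230), the classical immediate early gene and partner of JUN, was expressed at a low level. It had 97, 48 and 62 reads in pcCon and 57, 86 and 56 in pcYY2, which is an FPKM of 0.585, 0.289 and 0.450 against 0.409, 0.320 and 0.335. The groups overlapped, with both the highest and the lowest sample in pcCon. The log2 fold change was -0.29 with a 95% interval from -0.91 to 0.33, and it was -0.02 without pcCon 1 and -0.52 without pcCon 2.

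FOSL1 (ENSG00000175592, chromosome 11 from 65892049 to 65900573), also known as FRA-1 and associated with invasion of epithelial tumors, had an FPKM of 13.4, 9.65 and 9.38 in pcCon and of 10.6, 7.98 and 7.66 in pcYY2. In each group 1 sample stood above the other two, so that the groups overlapped. The mean was 10.8 ± 2.28 (SD, n = 3) and 8.75 ± 1.62, with a log2 fold change of -0.30 (95% interval -0.72 to 0.12) that was -0.11 without pcCon 1 and -0.45 without pcYY2 1.

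FOSL2 (ENSG00000075426, chromosome 2 from 28392448 to 28417312), or FRA-2, varied least of the members by the coefficient of variation in both groups (1.25% and 2.06%). Its FPKM was 4.75, 4.69 and 4.63 in pcCon and 5.12, 4.92 and 5.05 in pcYY2. The groups did not overlap and differed by 1.08-fold, with a log2 fold change of 0.11 (SE 0.0474, 95% interval 0.002 to 0.23) that did not pass the threshold over all genes.

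Among the JUN genes, JUN (ENSG00000177606, chromosome 1 from 58780788 to 58784327) encodes c-Jun, whose own promoter is a known AP-1 target. It had an FPKM of 4.41, 4.89 and 4.45 in pcCon and of 3.82, 4.53 and 4.18 in pcYY2. The groups overlapped, and the log2 fold change was -0.12 (95% interval -0.36 to 0.12), with -0.07 without pcCon 2, -0.05 without pcYY2 1 and -0.19 without pcYY2 2.

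JUNB (ENSG00000171223, chromosome 19 from 12791496 to 12793315), which can restrain the activity of c-Jun, had an FPKM of 28.8, 28.2 and 28.9 in pcCon and of 23.5, 25.4 and 24.1 in pcYY2. The groups did not overlap, and pcYY2 was at 0.859-fold, with a log2 fold change of -0.22 (SE 0.0589, 95% interval -0.36 to -0.08). It was not called with edgeR, and it was called in both fits with limma on log2 FPKM, where the log2 fold change was -0.23 and -0.24. JUNB lies inside HOOK2 on the other strand, which had between 716 and 1457 reads per sample, and as the sources do not state whether reads were counted by strand, reads of both genes cannot be told apart where they overlap.

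JUND (ENSG00000130522, chromosome 19 from 18279760 to 18281622), the JUN gene that is expressed most steadily in resting cells, had an FPKM of 40.4, 38.6 and 37.3 in pcCon and of 40.6, 40.4 and 43.6 in pcYY2. The highest pcCon sample and the lowest pcYY2 sample were both at 40.4. The log2 fold change was 0.11 (SE 0.0567, 95% interval -0.02 to 0.25).

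IER2 (ENSG00000160888, chromosome 19 from 13150415 to 13154908) had an FPKM of 4.49, 13.3 and 13.2 in pcCon and of 1.11, 1.53 and 11.6 in pcYY2. The samples pcCon 2, pcCon 3 and pcYY2 3 were high and pcCon 1, pcYY2 1 and pcYY2 2 were low, so that both groups held high and low samples. Counts were 516, 1532 and 1260 against 107, 286 and 1343. The largest to smallest ratio was 2.96 in pcCon, reached by 1.31% of the tested genes, and 10.5 in pcYY2, reached by 0.191%. The log2 fold change of -1.11 therefore had a 95% interval from -3.21 to 0.98, and it was -2.93 without pcYY2 3, -0.66 without pcYY2 1 and not called in any fit. Of the noncoding genes that overlap IER2 on the other strand, the one with counts in the table had at most 11 reads per sample.

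**Figure D2:**
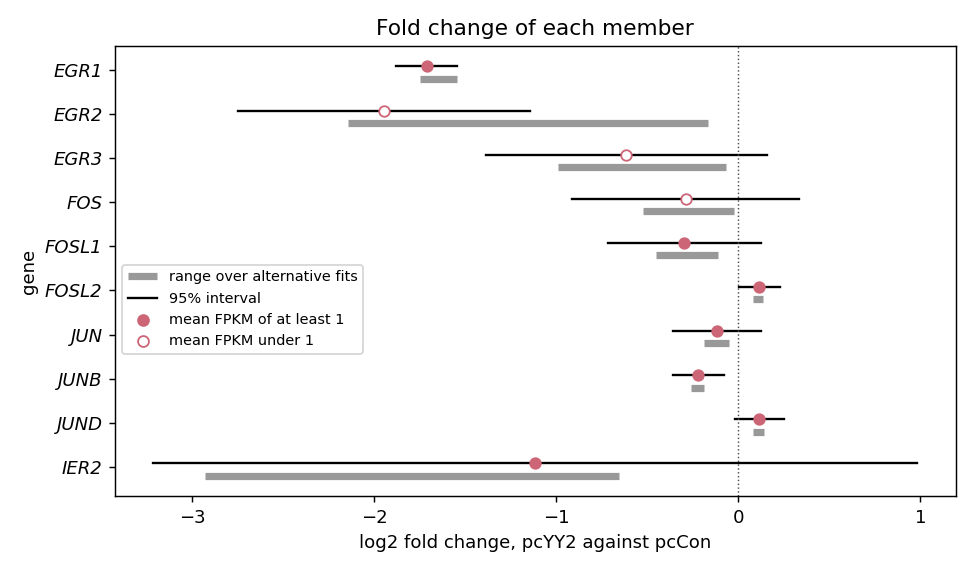
Log2 fold change of each member, pcYY2 against pcCon, with its 95% interval from edgeR (black) and the range over the alternative fits (grey). Filled points have a mean FPKM of at least 1 and open points were fitted with the filter at 0.1. For EGR2 and EGR3 the grey end with the smallest change is from limma on log2(FPKM + 1). EGR1 has a narrow interval around -1.71, and the interval of IER2 spans 0 from -3.21 to 0.98.

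Levels between genes were compared on another scale, as the length behind the deposited FPKM was longer than the transcript for several members, for instance 9099 bp for FOS, whose MANE Select transcript in GENCODE 44 has 2104 bp. The scale was CPM per kilobase of that transcript. On it FOS had a mean of 1.91 in pcCon and 1.53 in pcYY2, so that the longer length placed it under the filter of 1. In pcCon JUND had the highest level of 47.5 ± 1.89 (SD, n = 3). FOSL1 (32.8 ± 6.88), IER2 (30.9 ± 15.1) and JUNB (28.5 ± 0.411) followed, and these neighbours overlapped in their samples. EGR1 came next by its mean of 16.6 ± 0.780, under every JUNB sample but above IER2 in pcCon 1 (16.9 against 13.4). The others followed without overlap, namely FOSL2 at 8.98 ± 0.112, JUN at 4.98 ± 0.291, FOS at 1.91 ± 0.642, EGR2 at 0.393 ± 0.0569 and EGR3 at 0.296 ± 0.00656. In pcYY2 EGR1 came after FOSL2 in every sample, at 5.01 ± 0.164 against 9.63 ± 0.198. On the deposited FPKM the order was another, with EGR1 above FOSL1 and IER2 in pcCon (means of 16.6, 10.8 and 10.3). The order and the shares below thus depend on the lengths used.

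EGR1 made up most of the EGR mRNA in both groups, with 96.0% ± 0.454 (SD, n = 3) of the summed EGR level in pcCon and 94.6% ± 1.22 in pcYY2. The summed level of the 3 EGR genes was 17.6, 17.8 and 16.4 in pcCon and 5.09, 5.38 and 5.43 in pcYY2. For FOS and JUN genes the sum was 135, 120.0 and 118 in pcCon and 121, 115 and 116 in pcYY2, so that it overlapped between the groups. JUND was the largest part in every sample, with 38.2% ± 1.45 in pcCon and 43.4% ± 2.45 in pcYY2. FOSL1 held 26.1% ± 3.44 and 22.5% ± 3.54, JUNB 22.9% ± 1.56 and 20.7% ± 1.37, and FOS itself 1.52% ± 0.429 and 1.31% ± 0.138.

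**Figure D3:**
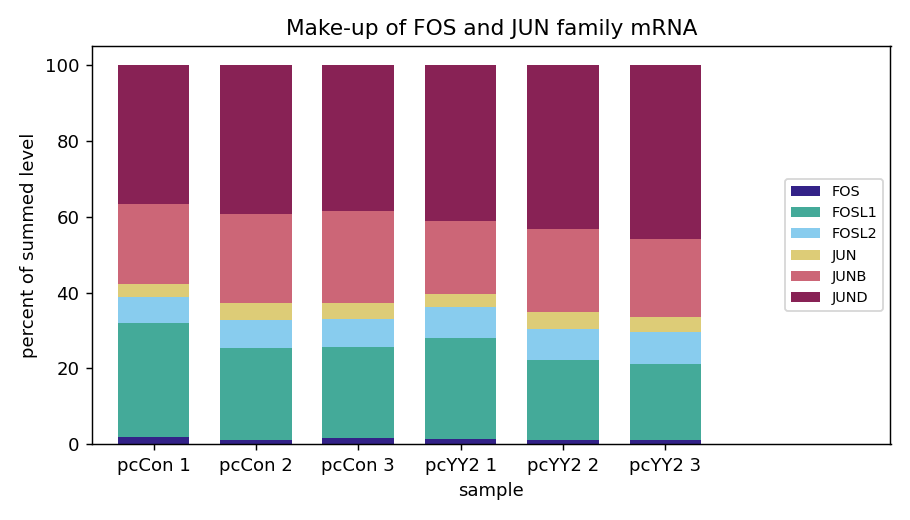
Share of each FOS and JUN gene in their summed level (CPM per kilobase of the MANE Select transcript) in each sample. JUND is the largest part in all 6 samples, and the JUND share is between 36.6% and 39.4% in pcCon and between 41.1% and 46.0% in pcYY2.

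The genes whose profile over the 6 samples was most like that of EGR1 were found by the Euclidean distance of log2 CPM after centring each gene on its own mean. They were ASNS (asparagine synthetase, distance 0.181), TNS4 (a focal adhesion adaptor, 0.341), RN7SL333P (a pseudogene, 0.611), PHGDH (the first enzyme of serine synthesis, 0.661) and ABCC3 (a drug and bile salt exporter, 0.736). The median distance over 12014 genes was 2.13. ASNS had an FPKM of 26.9, 28.4 and 24.97 in pcCon and of 8.24, 8.31 and 7.33 in pcYY2, and TNS4 of 26.7, 23.7 and 22.3 and of 8.54, 8.66 and 8.90. As these genes were picked for their likeness, their difference between the groups is a description as well. No other member with a mean FPKM of at least 1 was near, the closest being JUNB at 1.83, in place 1642, and IER2 lay beyond the median at 2.88. Counted from IER2, which is far from most genes (median 3.62), EGR1 was in place 80 at this same distance.

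Other immediate early genes were examined with a list of 38 genes, of which 29 had a mean FPKM of at least 1. IER3 and PLK2 fell in pcYY2 and TRIB1 rose, which is 3 of 29 genes (10.3%) beside 9.37% of all tested genes. IER3, a survival gene induced by ERK and NF-κB, had an FPKM of 83.3, 84.1 and 90.4 in pcCon and of 58.2, 60.5 and 64.2 in pcYY2, which gave -0.48 (SE 0.0582) on the log2 scale with an edgeR adjusted p of 0.00758. PLK2, a kinase of the Polo family, fell from 6.96 ± 0.972 (SD, n = 3) to 4.03 ± 0.226, or -0.78 on the log2 scale (edgeR adjusted p = 0.00991). The increase of TRIB1, a pseudokinase of the Tribbles family, was small (log2 fold change 0.18, adjusted p = 0.0362 from edgeR) and was not called when any sample was left out, with log2 fold changes between 0.16 and 0.20 and adjusted p up to 0.126. The list had a median log2 fold change of -0.08, with 9 genes above 0 and 20 below, beside a median of 0.002 over all tested genes. FOSB and EGR4, the nearest relatives of the members, had a mean FPKM of 0.145 and 0.121 and were not tested.

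Of 15 further bZIP proteins that can pair with FOS or JUN, such as those of the ATF, BATF and MAF groups, 4 had a mean FPKM of at least 1. None of these 4 (ATF2, ATF7, MAFG and MAFK) was called in either direction with edgeR or in the alternatives. Their median log2 fold change was 0.06. The list median was -0.14 to 0.11 in the alternatives, where lower filters brought in further genes of the list. Of 30 regulators of immediate early transcription, 28 were tested and 2 rose, the coactivator CREBBP (log2 fold change 0.28, edgeR adjusted p = 0.0342) and the kinase RPS6KA4, which phosphorylates CREB and histone H3 (0.22, adjusted p = 0.0472). CREBBP was called in 1 of the 6 fits that left out a sample, namely without pcCon 1, and RPS6KA4 in 0 of them, and their adjusted p reached 0.109 and 0.141. The median of the list was 0.02. For their roles at EGR1, and after their values were seen, SRF, ELK1 and the EGR corepressor NAB2 are named as well, with ELK3 and ELK4 beside ELK1. SRF had an FPKM of 15.7 ± 0.458 (SD, n = 3) in pcCon and 15.1 ± 1.197 in pcYY2. ELK1 had 12.5 ± 0.196 and 12.6 ± 0.505, and ELK3 had 11.5 ± 1.13 and 10.9 ± 1.08, both with overlap. ELK4 had 9.985 ± 0.140 and 8.82 ± 0.82 (log2 fold change -0.17, edgeR adjusted p = 0.177), and all its pcYY2 values lay under its pcCon values. NAB2 had 5.53 ± 0.0985 and 4.26 ± 1.11 (log2 fold change -0.37, adjusted p = 0.202 from edgeR).

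Genes known as targets of EGR1 numbered 18 tested of 21. SPRY4, BCL2L1 and NDRG1 fell and 0 rose, which is 3 of 18 (16.7%) beside 9.37% of all tested genes called in either direction. Earlier results of these data were known when the list was written, so nothing is read from this share. SPRY4, a feedback inhibitor of receptor tyrosine kinase signalling, had an FPKM of 16.7, 15.8 and 15.4 in pcCon and of 8.64, 9.48 and 8.59 in pcYY2, which gave -0.83 (SE 0.0638) on the log2 scale with an edgeR adjusted p of 0.00196. BCL2L1, which encodes the survival protein Bcl-xL, fell from 19.9 ± 0.194 (SD, n = 3) to 13.5 ± 0.765 (log2 fold change -0.54, adjusted p = 0.00552). NDRG1, a stress response gene named after its values were seen, fell by 0.39 on the log2 scale (edgeR adjusted p = 0.0222), and its call was lost without pcCon 1, pcCon 2, pcCon 3 or pcYY2 3 (log2 fold change -0.44 to -0.33, adjusted p up to 0.0728). The list median was -0.20, with 6 genes above 0 and 12 below. Many of these genes also answer to other factors, and a role of EGR1 in their values was not tested.

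Among targets of AP-1, 17 of 28 were tested, 3 rose and 2 fell, which is 29.4% beside 9.37% of all tested genes. This list too was written with earlier results of these data known, so its share is a description and nothing is read from it. TIMP1, an inhibitor of matrix metalloproteinases, rose from an FPKM of 21.3 ± 1.24 (SD, n = 3) to 30.6 ± 0.488, or 0.54 on the log2 scale (edgeR adjusted p = 0.00587). LAMB3, a laminin gene named after its values were seen, rose by 0.43 on the log2 scale (edgeR adjusted p = 0.0374). CCND1, the G1 cyclin D1, fell from 58.7 ± 0.841 to 48.6 ± 1.95 (log2 fold change -0.26, adjusted p = 0.0165), and LIF, a cytokine, fell from 13.8 ± 0.271 to 11.1 ± 0.320 (-0.30, adjusted p = 0.0215). TIMP1 was called whichever sample was left out. CCND1 lost the call without pcCon 1, 2 or 3 (adjusted p up to 0.0698), LIF without these or pcYY2 3 (up to 0.0846), and LAMB3 without these, pcYY2 2 or pcYY2 3 (up to 0.112). The median of the list was 0.04, with -0.02 to 0.10 in the alternatives, where lower filters brought in further genes of the list. In the main fit 11 of its genes lay under the filter on low values.

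**Figure D4:**
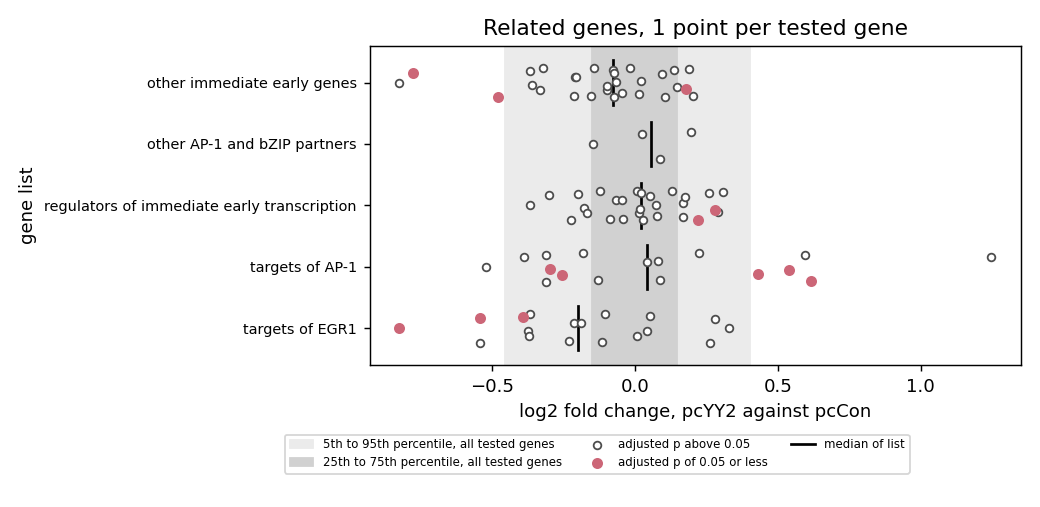
Log2 fold change, pcYY2 against pcCon, of every tested gene of the 5 lists, with red points for an adjusted p of 0.05 or less, black lines for the list medians and grey bands from the 5th to the 95th and from the 25th to the 75th percentile of all tested genes. The median of the EGR1 targets is at -0.20, and the medians of the other lists lie between -0.08 and 0.06.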

How the data were processed

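RNA-Seq had been performed on 6 samples of HCT116 cells. Per the methods, low-quality and rRNA reads were removed by the authors, Tophat aligned the rest to GRCh38 and Cufflinks gave FPKM, and the submitters' processing notes also name Bowtie2 and HTSeq. The strand setting of the counting is not given in the sources used here. The deposited counts are whole reads per gene without normalization, and the deposited FPKM are scaled to the sample total and a fixed gene length. Cuffdiff, the test of the methods, needs reads and was not used here. Counts were tested with edgeR (version 4.0.16, R 4.3.3, quasi-likelihood, TMM normalization) on genes whose mean FPKM reached 1, or 0.1 for low members, with Benjamini-Hochberg adjustment over all genes tested and a threshold of 0.05. The standard error (SE) was taken from the log2 fold change and its F statistic. Alternatives were limma 3.58.1, DESeq2 1.42.0, other filters and scaling, the replicate block and leaving out each sample, and the tests were tried on simulated data.

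The members and the 5 gene lists, written from general knowledge, were chosen with earlier results of these data known. Named genes were all members, YY2, at most the 2 called genes with the smallest p per direction and list, and the 5 genes nearest to EGR1. Genes outside this rule are said to be named after their values were seen, and 1 gene within it is not reported here. Promoter sequences were taken from RefSeq (GRCh38.p14). The searches for TGACATCA and CGCCATNTT, the level scale per MANE transcript and the genes nearest to IER2 were added after seeing the data.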

Additional observations from a re-analysis of the deposited data

How the results depend on the processing

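In the 13 alternative fits, the log2 fold change of EGR1 was between -1.75 and -1.55. The signs of the other members did not change in their alternatives, but sizes did, with -2.14 to -0.17 for EGR2, -0.99 to -0.07 for EGR3, -0.52 to -0.02 for FOS, -0.45 to -0.11 for FOSL1, -0.19 to -0.05 for JUN and -2.93 to -0.66 for IER2. The smallest changes of EGR2 and EGR3 came from limma on log2(FPKM + 1), where the added 1 exceeds their FPKM in every sample. In the edgeR alternatives EGR2 was between -2.14 and -1.79 and EGR3 between -0.99 and -0.44. EGR2 was called in 3 of the 11 alternatives with an adjusted p. With limma on log2(FPKM + 1) or log2(FPKM + 0.1), 2 members were called lower, as JUNB passed. The counts over all genes (543 higher and 583 lower) moved most with the replicate block, to 51 higher and 50 lower. The numbers are not known to pair the samples, and deviations of samples with the same number correlated at -0.0243, -0.053 and -0.035. Without 1 sample, 138 to 412 genes were higher and 147 to 393 lower. The 2 regulators called higher were at most 1 in the alternatives. Depth limits EGR2, EGR3 and FOS, with 5 to 97 reads per sample.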

Other observations

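Some genes of the lists had a large mean difference and a wide spread within a group, and did not pass the threshold of edgeR. They are named after their values were seen. EMP1, an epithelial membrane protein and AP-1 target, had an FPKM of 0.597, 0.573 and 3.09 in pcCon and of 3.51, 3.98 and 2.4 in pcYY2, or 1.25 on the log2 scale (SE 0.644, edgeR adjusted p = 0.252). ID2, an inhibitor of basic helix-loop-helix factors, had 22.6, 22.96 and 21.8 in pcCon and 15.1, 16.2 and 6.29 in pcYY2 (log2 fold change -0.82, adjusted p = 0.14). CDC25A, a phosphatase of the cell cycle, had 14.6, 14.98 and 14.5 in pcCon and 9.33, 7.12 and 13.6 in pcYY2 (-0.54, adjusted p = 0.143). All pcYY2 values of ID2 and CDC25A lay under their pcCon values, and those of EMP1 overlapped.

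The genes nearest to IER2 by the same distance as for EGR1 lay much farther from it than ASNS from EGR1. They were ANP32BP1, a pseudogene (distance 1.33), MTND4LP30, a pseudogene (2.09), RNF138, a ubiquitin ligase (2.101), STEAP2, a metalloreductase (2.20), and TUBB3, a neuronal tubulin (2.23), beside a median of 3.62 over all genes. RNF138 had an FPKM of 4.64, 12.5 and 12.7 in pcCon and of 4.17, 4.35 and 9.76 in pcYY2, so that it was high and low in the same samples as IER2. As these genes were picked for their likeness to IER2, this shared pattern is a description only. None of these 5 genes was called between the groups, with edgeR adjusted p from 0.112 to 0.49.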
